A study of Homo sapiens with 12 samples.

Results

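The interferon regulatory factors (IRFs) are a family of transcription factors, and 8 of their genes, IRF1, IRF2, IRF3, IRF4, IRF5, IRF7, IRF8 and IRF9, were followed here among the 60668 genes counted in each library. Members were found by symbol, each of the 8 symbols matching a single Ensembl gene, and 7 of the 8 had enough reads to be tested, against 13972 of the 60668 genes. IRF4 did not pass the filter on low counts and is described by its counts. The cells were MOLM-13, an established human acute myeloid leukaemia line of monocytic origin with a rearranged MLL gene (MLL-AF9) and a tandem duplication within the receptor kinase gene FLT3. For 8 days the cultures received MI-3454 and gilteritinib together (called the combination below), MI-3454 alone, gilteritinib alone, or the vehicle DMSO, with 3 libraries for each of the 4 groups. MI-3454 keeps menin from binding MLL proteins, and gilteritinib is an inhibitor of FLT3. All groups share this 1 cell line and the culture medium with serum, no source used here gives doses, and no group received an interferon. Cells were seeded in triplicate, so p-values measure the spread between these cultures of 1 line.

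IRFs bind DNA through a conserved amino-terminal domain that recognises GAAA repeats, the core of the interferon-stimulated response element. IRF3, IRF5 and IRF7 lie inactive in the cytoplasm until kinases downstream of nucleic acid sensors and Toll-like receptors phosphorylate them, after which they switch on interferon and cytokine genes. Interferons then act through JAK kinases and STAT factors; IRF9 joins STAT factors in the complex ISGF3, which activates the interferon-stimulated genes. IRF1 is itself induced by interferon gamma, and IRF2 binds the same elements and often opposes it. IRF8 and IRF4 are restricted mostly to blood cells, bind many sites together with PU.1 or AP-1 family partners, and direct monocyte, dendritic cell and lymphocyte differentiation.

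Each library held between 6472940 and 12051457 gene counts. Levels are given as CPM, counts per 1000000 normalised for library composition. Among uniquely placed reads, the share outside any gene was 28.5 to 36.5% with the combination, 17.4 to 25.5% with MI-3454, 15.6 to 17.8% with gilteritinib and 16.6 to 20.4% with DMSO, and its part in the results was not tested. All 7 markers of the myeloid line (such as PTPRC, SPI1 and LYZ) were present in every group, with summed levels of 15050 to 16400 CPM with the combination, 9620 to 10970 CPM with MI-3454, 2656 to 2758 CPM with gilteritinib and 2265 to 2429 CPM with DMSO. The sums differ mostly through LYZ, at means of 13480, 7831, 681.5 and 414.3 CPM in these groups. FLT3, also among the 7, went the other way, at means of 190.5, 227.8, 519.7 and 696.2 CPM. Summed markers of T cells reached at most 3.16 CPM in any library, those of B cells 1.52 CPM, those of erythroid cells 0.103 CPM and those of stromal or epithelial cells 3.64 CPM. Defining markers were at 0 in every combination library for 2 of 3 T cell, 1 of 3 B cell, 3 of 3 erythroid and 2 of 3 stromal or epithelial genes. In the same order, the markers at 0 numbered 2, 1, 2 and 2 with MI-3454. They numbered 2, 1, 3 and 0 with gilteritinib and 1, 1, 3 and 0 with DMSO.

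With DMSO, the family was dominated by IRF8. Scaled to the length of its exons, IRF8 stood at 55.8 ± 7.71 CPM per kilobase (SD, n = 3), followed by IRF3 at 27.8 ± 2.93 and IRF7 at 14.5 ± 2.48 CPM per kilobase. IRF2 at 8.27 ± 0.348, IRF5 at 7.26 ± 0.300 and IRF1 at 6.10 ± 0.730 CPM per kilobase formed a middle group. IRF9 stood at 0.781 ± 0.233 and IRF4 at 0.152 ± 0.0703 CPM per kilobase. Exons of another gene cover all of the longest IRF9 transcript, so its counts may miss reads and its place is uncertain on either length. Library values of neighbours in this order did not overlap, and the order was the same when the longest annotated transcript replaced the merged exons.

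The largest change among the tested members was in IRF5, which rose with the combination and with MI-3454, and IRF8 fell in both. IRF1 and IRF2 rose with the combination, and IRF7 fell with the combination and with gilteritinib. Changes are log2 ratios on normalised counts, tested with edgeR's quasi-likelihood test, and a gene is called, or said to rise or fall, where its Benjamini-Hochberg adjusted p over all tested genes is below 0.05. With the combination 5 of 7 tested members were called, 3 higher and 2 lower, where 57.5% of all tested genes were called, 29.2% higher and 28.4% lower. With MI-3454 2 of 7 members were called, 1 higher and 1 lower, against a background of 19.0% called, 10.1% higher and 8.95% lower. With gilteritinib 1 of 7 members was called, lower, against 15.1% of all genes called, 6.92% higher and 8.18% lower. The members' median log2 change was -0.038 with the combination, -0.25 with MI-3454 and -0.015 with gilteritinib, beside -0.00066, 0.0032 and -0.00063 over all tested genes. Library values did not overlap between the groups for 5 of 7 members in the combination against DMSO, where this held for 62.8% of all tested genes, for 3 of 7 in MI-3454 against DMSO (34.6% of all genes) and for 3 of 7 in gilteritinib against DMSO (33.6%). These 3 comparisons share the DMSO libraries. Scaling by total counts alone put the median change of all genes at 0.10 for the combination against DMSO, and no member's direction in that comparison other than that of IRF9 differed under it.

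**Figure D1:**
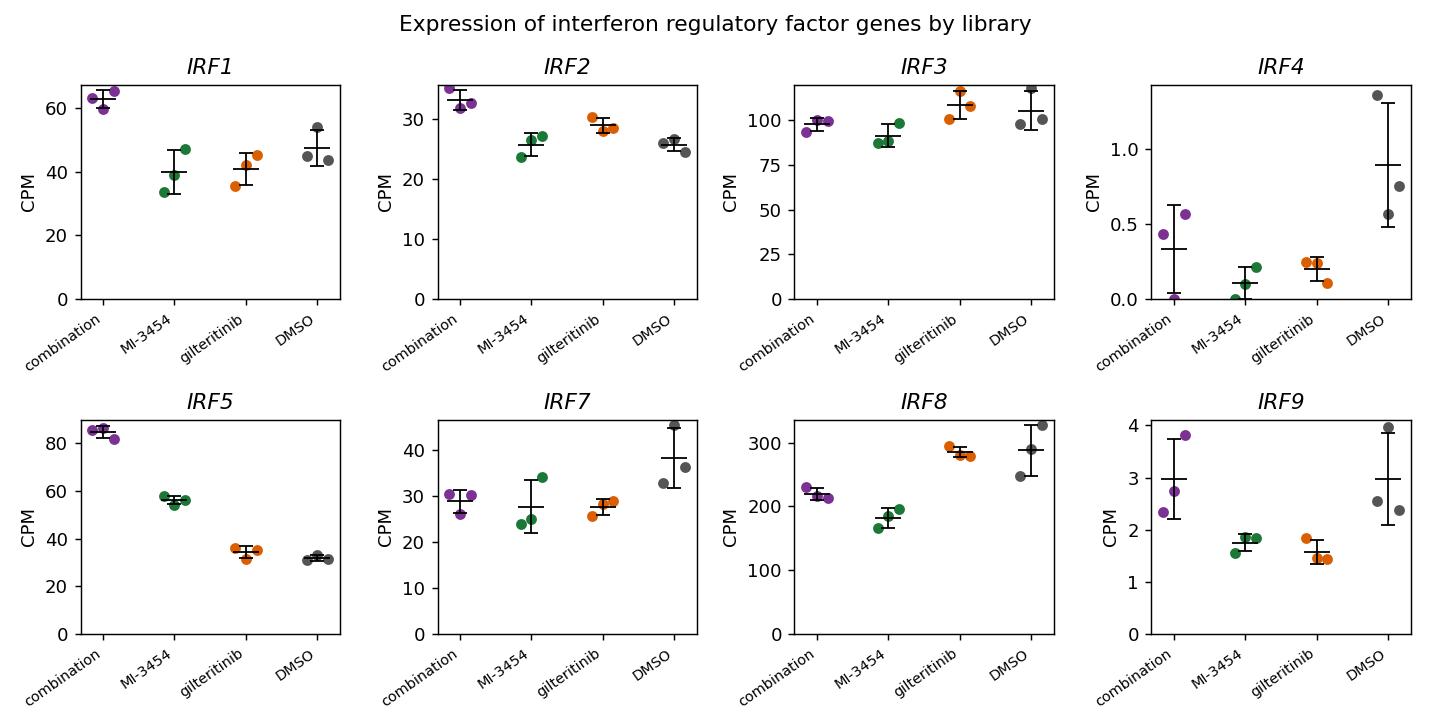
Expression of the 8 IRF genes in each library, in CPM on axes that start at 0; points are libraries, the long horizontal mark is the mean and the bars are the SD (n = 3). IRF5 separates the combination (81.7 to 86.4 CPM) and MI-3454 (54.2 to 57.8 CPM) from gilteritinib and DMSO, and all combination libraries lie above all others for IRF1 and IRF2.

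Of the members that act downstream of sensors, IRF5, which drives inflammatory cytokine genes in macrophages, had 85.5, 86.4 and 81.7 CPM with the combination. It had 57.8, 54.2 and 56.3 CPM with MI-3454, 36.0, 31.3 and 35.2 CPM with gilteritinib, and 30.8, 33.3 and 31.3 CPM with DMSO. Every combination library lay above every MI-3454 library, and every MI-3454 library above every library of the other groups, whereas gilteritinib and DMSO overlapped. IRF5 rose by 1.41 ± 0.11 (log2 change ± SE; adjusted p = 8.31e-09) with the combination and by 0.82 ± 0.11 (adjusted p = 0.00030) with MI-3454, and its change with gilteritinib was 0.11 ± 0.11 (adjusted p = 0.56). The combination exceeded MI-3454 by 0.60 ± 0.09 (adjusted p = 0.00060) and gilteritinib by 1.31 ± 0.08 (adjusted p = 9.38e-09), and MI-3454 exceeded gilteritinib by 0.71 ± 0.10 (adjusted p = 0.00051). All 5 of these calls held in each of the 13 alternatives tried.

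IRF5 lies on the forward strand of chromosome 7 (GRCh38, GENCODE 29 chr7:128937612-128950035), where no exon of another gene overlaps its exons. The RefSeq table of promoters (build GRCh38.p14, 250 bases before to 50 after each annotated start) held 4 starts for IRF5, and counts per gene do not separate transcripts from these starts. Promoters are shown for IRF5, IRF1 and IRF9, the members whose combination change departed from the sum of the single-agent changes, and each was searched on both strands for 3 motifs. These were the interferon-stimulated response element GAAANNGAAA, the gamma-activated site TTCNNNGAA bound by STAT dimers, and the composite GGAANNGAAA of an ETS factor with an IRF; the composite can overlap the response element. They occurred in 3.57%, 7.66% and 2.82% of all 35116 promoters of the table. None of the 9 promoters found for members (IRF1, IRF4, IRF9, 4 for IRF5 and 2 for IRF8) contained the response element in these letters. The table held no entry for IRF2, IRF3 or IRF7. Both IRF8 entries, the first at chr16:85902580-85902879, lie within the gene, past its GENCODE 29 start at 85898803. The region at that IRF8 start was therefore not searched. The IRF5 start shown is the one of 4 with a match, at chr7:128940420-128940719 on the forward strand, where capitals mark the composite, read on the reverse strand and 33 to 24 bases before the start.
IRF5: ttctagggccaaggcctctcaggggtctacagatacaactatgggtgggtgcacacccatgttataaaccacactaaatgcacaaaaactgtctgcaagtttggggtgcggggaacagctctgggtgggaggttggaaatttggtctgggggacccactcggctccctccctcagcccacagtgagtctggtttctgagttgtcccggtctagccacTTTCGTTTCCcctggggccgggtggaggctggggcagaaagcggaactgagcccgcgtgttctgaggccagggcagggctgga

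IRF3, the constitutively made factor that responds first to viral nucleic acids, had 93.5, 100.2 and 99.7 CPM with the combination. It had 87.1, 88.7 and 98.7 CPM with MI-3454, 100.8, 116.5 and 108.2 CPM with gilteritinib, and 97.8, 118.2 and 100.5 CPM with DMSO. All groups overlapped DMSO, and no comparison between groups was called. MI-3454 against gilteritinib (-0.25 ± 0.10, adjusted p = 0.11) was called lower without MI-3454 replicate 3 (-0.32, adjusted p = 0.016) and without the library of each group highest in the cytoplasmic RNA RN7SL1 (-0.27, adjusted p = 0.0050). The change with the combination was -0.11 ± 0.11 (adjusted p = 0.40), with a normal 95% interval of -0.32 to 0.10. Some 19.4% of the exon bases of IRF3 lie under exons of BCL2L12 on the opposite strand, which had 193 to 595 counts per library, and the strand setting of the counting is not given in the sources used here.

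IRF7, the factor that amplifies type I interferon production and is itself interferon-inducible, had 30.4, 26.0 and 30.2 CPM with the combination. It had 24.0, 24.9 and 34.2 CPM with MI-3454, 25.6, 28.2 and 28.8 CPM with gilteritinib, and 32.8, 45.4 and 36.2 CPM with DMSO. Every combination and gilteritinib library lay below every DMSO library, and MI-3454 replicate 3 overlapped DMSO. IRF7 fell by 0.40 ± 0.14 on the log2 scale (adjusted p = 0.019) with the combination and by 0.47 ± 0.14 (adjusted p = 0.037) with gilteritinib, and its change with MI-3454 was -0.46 ± 0.17 (adjusted p = 0.085). The combination call was lost without combination replicate 2 (-0.33, adjusted p = 0.11) and with scaling by total counts alone (-0.29, adjusted p = 0.077). The gilteritinib call was lost without DMSO replicate 3 (adjusted p = 0.069) or without gilteritinib replicate 1, 2 or 3 (adjusted p = 0.13, 0.066 and 0.084), and the MI-3454 change was called in 4 of 13 alternatives, without MI-3454 replicate 3 (-0.65, adjusted p = 0.0063), with no filter on low counts (adjusted p = 0.030), in a joint fit of all 12 libraries (adjusted p = 0.028) and without the libraries highest in RN7SL1 (adjusted p = 0.0037).

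IRF1, the interferon gamma-induced activator, was highest in all 3 combination libraries, at 63.4, 59.7 and 65.4 CPM. It had 33.7, 39.0 and 47.2 CPM with MI-3454, 35.5, 42.1 and 45.4 CPM with gilteritinib, and 44.9, 54.1 and 43.7 CPM with DMSO. No combination library overlapped any other group, and the single agents overlapped DMSO and each other. IRF1 rose by 0.40 ± 0.11 (adjusted p = 0.0066) with the combination, whereas its changes with MI-3454 (-0.25 ± 0.15, adjusted p = 0.29) and gilteritinib (-0.22 ± 0.13, adjusted p = 0.27) were below 0. The combination exceeded MI-3454 by 0.66 ± 0.12 (adjusted p = 0.0023) and gilteritinib by 0.63 ± 0.10 (adjusted p = 6.88e-05), and these 3 calls held in all 13 alternatives. Replicate numbers were taken to pair the gilteritinib and DMSO libraries, which is uncertain. With the replicate as a block IRF1 was called lower with gilteritinib (-0.22 ± 0.09, adjusted p = 0.047), as were IRF7 (-0.46 ± 0.10, adjusted p = 9.02e-05) and IRF9 (-0.87 ± 0.31, adjusted p = 0.022). That makes 3 of 7 members with the block against 1 of 7 without it, while the count over all genes was 4928 with the block against 2110 without it.

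IRF1 lies on the reverse strand of chromosome 5 (GENCODE 29 chr5:132481609-132490798). Exons of C5orf56 on the opposite strand, with 10 to 44 counts per library, cover 22.0% of its exon bases. Its RefSeq promoter, chr5:132490724-132491023 on the reverse strand, is shown here, and capitals mark a match to the gamma-activated site, 124 to 116 bases before the start.
IRF1: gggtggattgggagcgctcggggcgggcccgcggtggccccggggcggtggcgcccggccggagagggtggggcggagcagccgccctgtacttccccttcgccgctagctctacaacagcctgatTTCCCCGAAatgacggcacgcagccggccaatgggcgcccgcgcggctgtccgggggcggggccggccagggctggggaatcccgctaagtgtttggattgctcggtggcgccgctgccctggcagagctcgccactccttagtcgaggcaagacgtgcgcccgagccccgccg

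IRF2, the partner that competes with IRF1 for the same elements, had 35.1, 31.9 and 32.7 CPM with the combination. It had 23.6, 26.5 and 27.1 CPM with MI-3454, 30.3, 28.0 and 28.5 CPM with gilteritinib, and 26.0, 26.7 and 24.6 CPM with DMSO. The combination libraries lay above all others and the gilteritinib libraries above all DMSO libraries. IRF2 rose by 0.37 ± 0.12 (adjusted p = 0.013) with the combination, and its change was -0.000055 ± 0.13 (adjusted p = 1.0) with MI-3454 and 0.17 ± 0.11 (adjusted p = 0.34) with gilteritinib. The combination call was lost without combination replicate 1 (0.33, adjusted p = 0.062) and with no filter on low counts (0.30, adjusted p = 0.093).

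**Figure D2:**
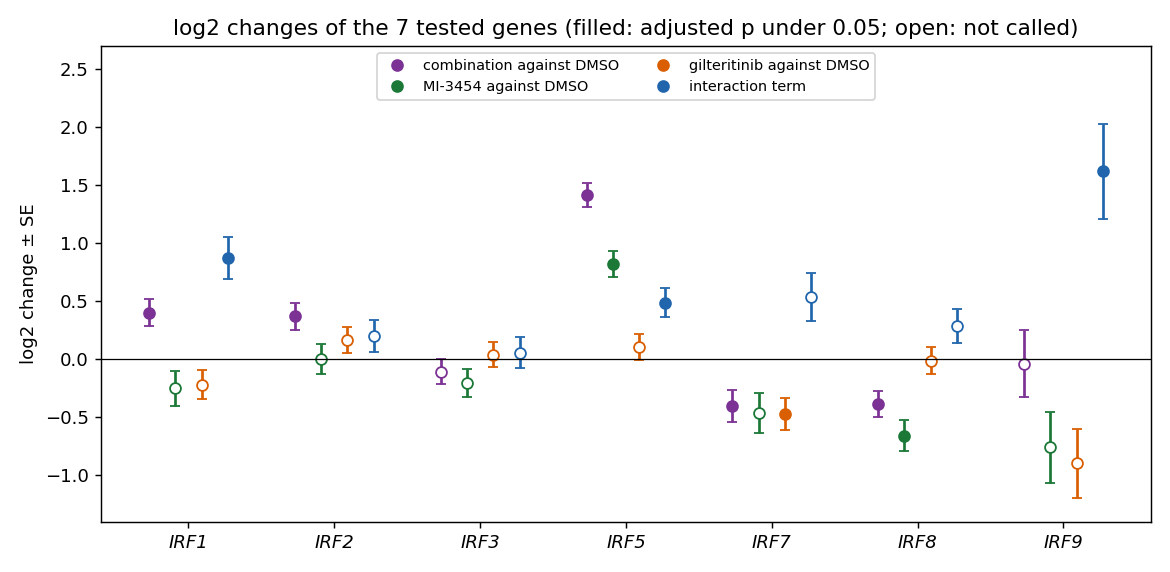
log2 change (vertical axis) of the 7 tested IRF genes for the combination, MI-3454 and gilteritinib, each against DMSO, and for the interaction term; bars are ± 1 SE, and filled points have an adjusted p below 0.05. IRF5 has the highest combination change at 1.41, and the interaction terms of IRF1, IRF5 and IRF9 are called.

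IRF8, the member that directs monocyte and dendritic cell development, had 230.9, 215.9 and 213.4 CPM with the combination. It had 165.3, 185.5 and 196.1 CPM with MI-3454, 294.9, 280.9 and 279.8 CPM with gilteritinib, and 247.7, 289.5 and 327.2 CPM with DMSO. All MI-3454 libraries lay below all combination libraries, and all combination libraries below those of gilteritinib and DMSO, which overlapped. IRF8 fell by 0.66 ± 0.13 on the log2 scale (adjusted p = 0.0043) with MI-3454 and by 0.39 ± 0.12 (adjusted p = 0.0089) with the combination, and its change with gilteritinib was -0.015 ± 0.12 (adjusted p = 0.95). The combination was lower than gilteritinib by a log2 change of -0.37 ± 0.08 (adjusted p = 0.0014) and MI-3454 lower than gilteritinib by -0.65 ± 0.10 (adjusted p = 0.0010). The MI-3454 calls against DMSO and against gilteritinib, and the call of the combination against gilteritinib, held in all 13 alternatives. The combination call against DMSO was lost without DMSO replicate 3 (-0.29, adjusted p = 0.0504) and without combination replicate 2 (-0.37, adjusted p = 0.0508). The combination exceeded MI-3454 by 0.28 ± 0.10 (adjusted p = 0.049), a call that was made in 3 of the 13 alternatives, with adjusted p between 0.0037 and 0.18. It was lost without MI-3454 replicate 1 or 2, or combination replicate 1, 2 or 3 (adjusted p = 0.18, 0.077, 0.15, 0.14 and 0.11).

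IRF4, the close relative of IRF8 best known from lymphocytes and plasma cells, had 5, 0 and 4 counts in the combination libraries. It had 0, 1 and 2 counts with MI-3454, 3, 2 and 1 counts with gilteritinib, and 15, 6 and 7 counts with DMSO. Every treated library held fewer raw IRF4 counts than every DMSO library, but depth differed between libraries. Combination replicate 3, with 6472940 gene counts, stood at 0.5664 CPM and DMSO replicate 2, with 11147953, at 0.5684 CPM. Scaled to depth, the combination was therefore barely separated from DMSO. The highest libraries with MI-3454 and gilteritinib stood at 0.217 and 0.2504 CPM. Relative to depth, the summed counts were 2.83-fold lower with the combination (exact 95% interval 1.30 to 6.82), 8.45-fold lower with MI-3454 (2.61 to 43.4, from 3 counts) and 4.44-fold lower with gilteritinib (1.80 to 13.1). These intervals cover counting error only. In a fit without the filter on low counts, IRF4 was called lower in all 3 treated groups (adjusted p = 0.041, 0.0031 and 0.020 for the combination, MI-3454 and gilteritinib).

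IRF8 and IRF5 were set side by side because their calls ran in opposite directions, so their shares of the family are given as a description. Permutation tests of these shares were run but are not used here, since the pair was chosen on the same values. Over IRF1, IRF2, IRF3, IRF4, IRF5, IRF7 and IRF8, each scaled to exon length, IRF8 made up 36.3 ± 0.948% of the sum with the combination, 36.7 ± 1.10% with MI-3454, 47.4 ± 1.65% with gilteritinib and 46.5 ± 3.88% with DMSO (SD, n = 3). IRF5 made up 16.5 ± 0.556% with the combination, 13.4 ± 1.29% with MI-3454, 6.69 ± 0.527% with gilteritinib and 6.08 ± 0.413% with DMSO. IRF8 exceeded IRF5 by 2.21-fold with the combination, 2.76-fold with MI-3454, 7.10-fold with gilteritinib and 7.69-fold with DMSO. The sum itself was 117.5 ± 2.21 CPM per kilobase with the combination (two-sided exact permutation p = 0.9 against DMSO), 96.2 ± 7.84 with MI-3454 (exact p = 0.1, the smallest that 3 against 3 libraries allow), 116.7 ± 0.723 with gilteritinib (exact p = 0.7) and 119.9 ± 10.8 with DMSO.

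**Figure D3:**
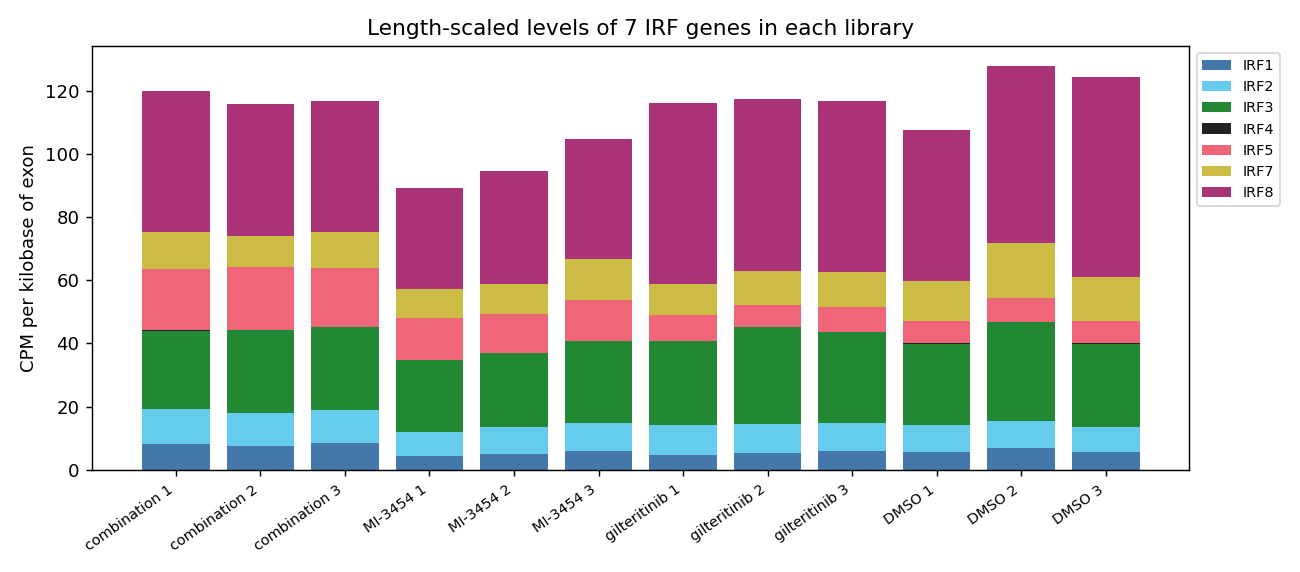
Length-scaled levels of 7 IRF genes stacked in each of the 12 libraries, in CPM per kilobase of exon on an axis that starts at 0; IRF9 is left out because another gene covers much of its exons. The IRF5 layer is widest in the combination libraries (16.5% of the sum) and the IRF8 layer is widest with gilteritinib and DMSO (47.4% and 46.5%).

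IRF9, the DNA-binding part of ISGF3, had 27, 26 and 27 counts with the combination (2.34, 2.74 and 3.82 CPM). It had 14, 18 and 17 counts with MI-3454 (1.56, 1.85 and 1.84 CPM), 22, 12 and 13 counts with gilteritinib (1.84, 1.46 and 1.43 CPM), and 28, 42 and 22 counts with DMSO (2.54, 3.98 and 2.37 CPM). Both single agents lay below every combination and DMSO library in CPM, and the combination overlapped DMSO. Its change was -0.038 ± 0.29 (adjusted p = 0.92) with the combination, -0.76 ± 0.31 (adjusted p = 0.11) with MI-3454 and -0.90 ± 0.30 (adjusted p = 0.063) with gilteritinib. The combination exceeded gilteritinib by 0.86 ± 0.29 (adjusted p = 0.020), a call lost without gilteritinib replicate 3 (0.79, adjusted p = 0.058) or combination replicate 3 (0.67, adjusted p = 0.078).

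The exons of IRF9 are shared with another annotated gene. In GENCODE 29, IRF9 (chr14:24161053-24166565, forward strand) is spanned by a gene on the same strand that joins exons of the neighbouring RNF31 to those of IRF9 (ENSG00000259529). Its exons cover all 1838 bases of the longest IRF9 transcript and 48.4% of the merged IRF9 exons. HTSeq by default leaves out a read that falls in 2 genes, and the mode used is not given in the sources used here; the spanning gene had 1 to 11 counts per library and RNF31 5 to 15. The share of uniquely placed reads left out as ambiguous over all genes was 4.65 to 5.82% with the combination, 6.002 to 10.2% with MI-3454, 7.51 to 10.2% with gilteritinib and 6.43 to 9.45% with DMSO, and its part in the IRF9 values was not tested. The RefSeq promoter of IRF9 is chr14:24161015-24161314 on the forward strand, where capitals mark a match to the gamma-activated site, 63 to 55 bases before the start.
IRF9: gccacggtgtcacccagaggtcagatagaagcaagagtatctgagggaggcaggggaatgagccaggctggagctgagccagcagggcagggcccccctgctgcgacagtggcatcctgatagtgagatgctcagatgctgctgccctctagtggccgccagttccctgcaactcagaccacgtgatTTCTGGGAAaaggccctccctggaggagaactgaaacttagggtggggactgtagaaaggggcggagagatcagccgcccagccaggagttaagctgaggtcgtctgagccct

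**Figure D4:**
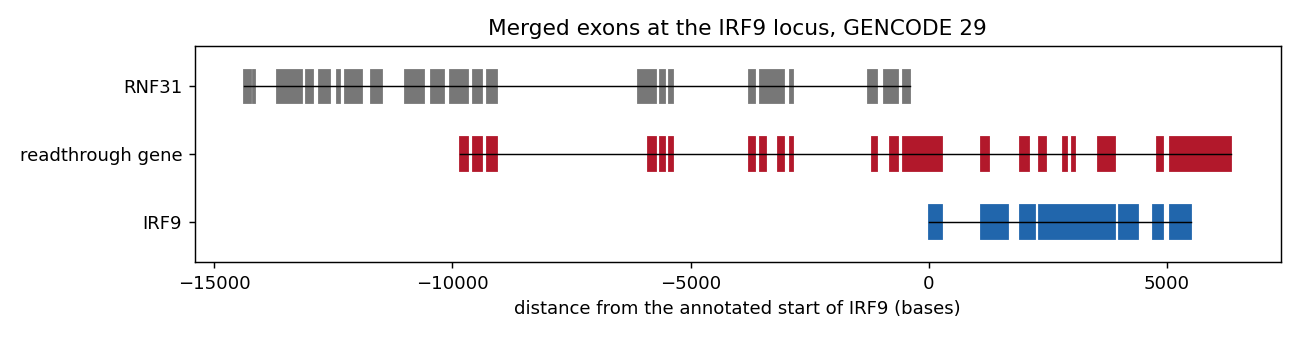
Merged exons (boxes) of RNF31, the gene that spans IRF9 and joins part of RNF31 to it, and IRF9 in GENCODE 29, plotted by distance in bases from the annotated IRF9 start. Exons of the spanning gene lie under 48.4% of the IRF9 exon bases.

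Whether the combination's change departed from the sum of the single-agent changes was tested with an interaction term over all 12 libraries. It is the combination's log2 change less the sum of the changes with MI-3454 and gilteritinib. The term was called for 3 of 7 members, all positive, where 15.3% of all tested genes were called, 6.55% positive and 8.74% negative. With scaling by total counts alone the split over all genes was 1120 positive and 808 negative calls, against 915 and 1221 in the main scaling, and the median term of all genes was 0.11 against -0.020. IRF1 had a term of 0.87 ± 0.18 (adjusted p = 0.0052), its level being below DMSO on average with either agent alone and above it with both. IRF9 had a term of 1.62 ± 0.41 (adjusted p = 0.014), on counts that may miss reads in the shared exons. IRF5 had a term of 0.49 ± 0.12 (adjusted p = 0.015), which was not called with no filter on low counts (0.50, adjusted p = 0.060). The other terms were 0.53 ± 0.21 for IRF7 (adjusted p = 0.097), 0.29 ± 0.15 for IRF8 (adjusted p = 0.20), 0.20 ± 0.14 for IRF2 (adjusted p = 0.35) and 0.06 ± 0.14 for IRF3 (adjusted p = 0.82). IRF7 would be called without MI-3454 replicate 3 (0.71, adjusted p = 0.017), with total counts alone (0.67, adjusted p = 0.031) and without the libraries highest in RN7SL1 (0.53, adjusted p = 0.017). In the edgeR fit with no filter on low counts, which also tests IRF4, the IRF4 term was called at 3.568 ± 1.195 (adjusted p = 0.039). It rests on few counts, 9 with the combination, 3 with MI-3454, 6 with gilteritinib and 28 with DMSO.

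Between the treated groups, 4 of 7 members were called in the combination against MI-3454, all higher (IRF1, IRF2, IRF5 and IRF8), beside 29.2% of all genes called, 14.1% higher and 15.1% lower. With total counts alone the split over all genes was 2472 higher and 1437 lower, against 1972 and 2103. IRF2 differed by 0.38 ± 0.11 (adjusted p = 0.024), a call lost without MI-3454 replicate 1 or any of the 3 combination libraries, with a largest adjusted p of 0.091. In the combination against gilteritinib 4 of 7 were called, IRF1, IRF5 and IRF9 higher and IRF8 lower, beside 60.4% of all genes, 30.1% higher and 30.3% lower (with total counts alone 5010 higher and 3140 lower, against 4210 and 4229). In MI-3454 against gilteritinib 2 of 7 were called, IRF5 higher and IRF8 lower, beside 17.4% of all genes, 9.96% higher and 7.43% lower. Ordered by level, neighbouring groups differed past the threshold at each step for IRF5 from the combination to MI-3454 to gilteritinib, for IRF8 from gilteritinib to the combination to MI-3454, for IRF1 from the combination to DMSO, and for IRF7 from DMSO to the combination. No neighbouring groups did so for IRF2, IRF3 or IRF9. The IRF8 step from the combination to MI-3454 (adjusted p = 0.049) was called in only 3 of 13 alternatives. Library values did not overlap for 5 of 7 members in the combination against MI-3454 (44.8% of all tested genes), for 6 of 7 against gilteritinib (66.4%) and for 4 of 7 in MI-3454 against gilteritinib (35.3%).

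IRF5 was the member with a called combination change of at least 1 on the log2 scale, and the genes with the most similar profile were sought among 9779 protein-coding genes averaging at least 5 CPM. Likeness was the root mean square difference of log2(CPM + 0.5), each gene centred on its own DMSO mean, over the 12 libraries. TNFRSF1B, a receptor for tumour necrosis factor, was closest at 0.0998, with 236.4 ± 20.4 CPM with the combination, 152.1 ± 9.38 with MI-3454, 105.2 ± 2.18 with gilteritinib and 92.0 ± 6.89 CPM with DMSO. NAGK, a kinase of amino sugars, and PRKCB, a protein kinase C isoform, both followed at 0.115, where the median of all candidates was 0.882.

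Most genes that carry the interferon signal from the cell surface rose with the combination. Of 9 tested genes for interferon receptors, JAK kinases and STATs, 8 rose and none fell with the combination, where 29.2% of all tested genes rose and 28.4% fell, with a median log2 change of 0.55 beside -0.00066 for all genes. The exception, named after its values were seen, was the receptor chain gene IFNAR1 (0.05 ± 0.11, adjusted p = 0.72). STAT2, which binds IRF9, averaged 187.7 ± 16.7 CPM with the combination, 117.5 ± 9.23 with MI-3454, 90.0 ± 10.99 with gilteritinib and 93.5 ± 2.097 CPM with DMSO, and rose by 1.01 ± 0.11 (adjusted p = 4.95e-07) with the combination. The kinase gene JAK2 rose by 0.80 ± 0.13, and the receptor chain genes IFNAR2 and IFNGR1 by 0.79 ± 0.12 and 0.64 ± 0.12. With MI-3454 IFNGR1 and IFNGR2 rose and none fell (2 of 9, beside 10.1% of all genes higher; median 0.21), a count that ran from 0 to 3 over the alternatives and was 0 without DMSO replicate 1 or 3 or MI-3454 replicate 1 or 2. With gilteritinib none of 9 was called (median -0.08), and the count of lower calls was 3 without DMSO replicate 2. The interaction term was called positive for 3 of 9, beside 6.55% of all genes, among them STAT2 (0.73 ± 0.14, adjusted p = 0.0034) and JAK2 (0.72 ± 0.21, adjusted p = 0.029). That count was 1 without DMSO replicate 3 or combination replicate 3, and the JAK2 term was lost without DMSO replicate 1 or 3, gilteritinib replicate 2 or 3 or combination replicate 3 (adjusted p = 0.052 to 0.074).

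Of 19 tested sensors, adaptors and kinases upstream of IRF3, IRF5 and IRF7 (of 21 listed), 6 rose and 4 fell with the combination, 3 rose and 3 fell with MI-3454, and 1 rose and 1 fell with gilteritinib, with medians of 0.17, -0.036 and -0.030. Over all genes 29.2% rose and 28.4% fell with the combination, 10.1% and 8.95% with MI-3454 and 6.92% and 8.18% with gilteritinib, so the combination counts are near the background. TLR8, a sensor of single-stranded RNA that signals to IRF5, had 246 counts over the combination libraries, 74 with MI-3454, 11 with gilteritinib and 1 with DMSO. Relative to depth that is 270.4-fold (exact 95% counting interval 48.1 to 10720), 81.8-fold (14.2 to 3272) and 11.6-fold (1.68 to 498.2) the DMSO count. These intervals cover counting error only. TLR8 was called higher with the combination and with MI-3454, and its change with gilteritinib was not called (3.10 ± 1.07, adjusted p = 0.073). TLR7, another sensor of single-stranded RNA, had 15 counts over the combination libraries, 21 with MI-3454, 49 with gilteritinib and 56 with DMSO. It fell by 1.72 ± 0.43 on the log2 scale (adjusted p = 0.0024) with the combination and by 1.25 ± 0.38 (adjusted p = 0.039) with MI-3454, the second call being lost with DESeq2 and without DMSO replicate 1 or 2 or any of the 3 MI-3454 libraries (adjusted p = 0.067 to 0.15). IKBKE, a kinase of IRF3 and IRF7, averaged 78.5 ± 2.56 CPM with the combination, 72.5 ± 8.92 with MI-3454, 42.9 ± 3.42 with gilteritinib and 33.4 ± 3.68 CPM with DMSO, and rose by 1.24 ± 0.11 and 1.12 ± 0.14 with the combination and MI-3454. CGAS, the sensor of cytosolic DNA, fell with log2 changes of -1.03 ± 0.11 with the combination, -0.87 ± 0.12 with MI-3454 and -0.9951 ± 0.11 with gilteritinib, while its adaptor STING1 rose by 0.61 ± 0.12 with the combination, 0.59 ± 0.14 with MI-3454 and 0.61 ± 0.11 with gilteritinib. The MI-3454 count of lower genes was 1 without DMSO replicate 2 or MI-3454 replicate 1 or 2. With the replicate block the gilteritinib counts were 5 higher and 3 lower, and without DMSO replicate 2 they were 3 higher and 2 lower.

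Among 10 tested DNA-binding partners and corepressors (of 11 listed), none rose and 4 fell with the combination, and 1 rose and 3 fell with MI-3454 and likewise with gilteritinib (medians -0.24, 0.0074 and 0.12). Over all genes 29.2% rose and 28.4% fell with the combination, 10.1% and 8.95% with MI-3454 and 6.92% and 8.18% with gilteritinib. SPIB, the ETS partner of IRF4 and IRF8 in lymphoid and dendritic cells, had 14 counts over the combination libraries, 20 with MI-3454, 75 with gilteritinib and 700 with DMSO, and fell with log2 changes of -5.45 ± 0.32, -4.95 ± 0.36 and -3.13 ± 0.25. BATF3, the AP-1 partner of IRF8 in dendritic cells, had 1 count with the combination, 4 with MI-3454, 9 with gilteritinib and 135 with DMSO, which is 122.8-fold lower than DMSO with the combination (exact counting interval 21.7 to 4887). JUND fell to 209.2 ± 30.6 CPM with the combination, 698.9 ± 94.4 with MI-3454 and 690.5 ± 20.1 with gilteritinib, against 1714 ± 192.5 CPM with DMSO. PU.1 itself is encoded by SPI1, which was not called in these comparisons, at 0.12 ± 0.14, 0.07 ± 0.19 and 0.24 ± 0.15, and is named after its values were seen. The corepressor gene IRF2BP1 fell by 0.50 ± 0.13 with the combination. JUN rose by 0.95 ± 0.22 with MI-3454, a call lost without DMSO replicate 1 (0.80, adjusted p = 0.056), and BATF rose by 0.68 ± 0.18 with gilteritinib, a call lost without DMSO replicate 1 or 3 or gilteritinib replicate 1 or 2 (adjusted p = 0.094, 0.10, 0.064 and 0.10). Without DMSO replicate 2 the gilteritinib count was 5 higher, and with the replicate block it was 3 higher.

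**Figure D5:**
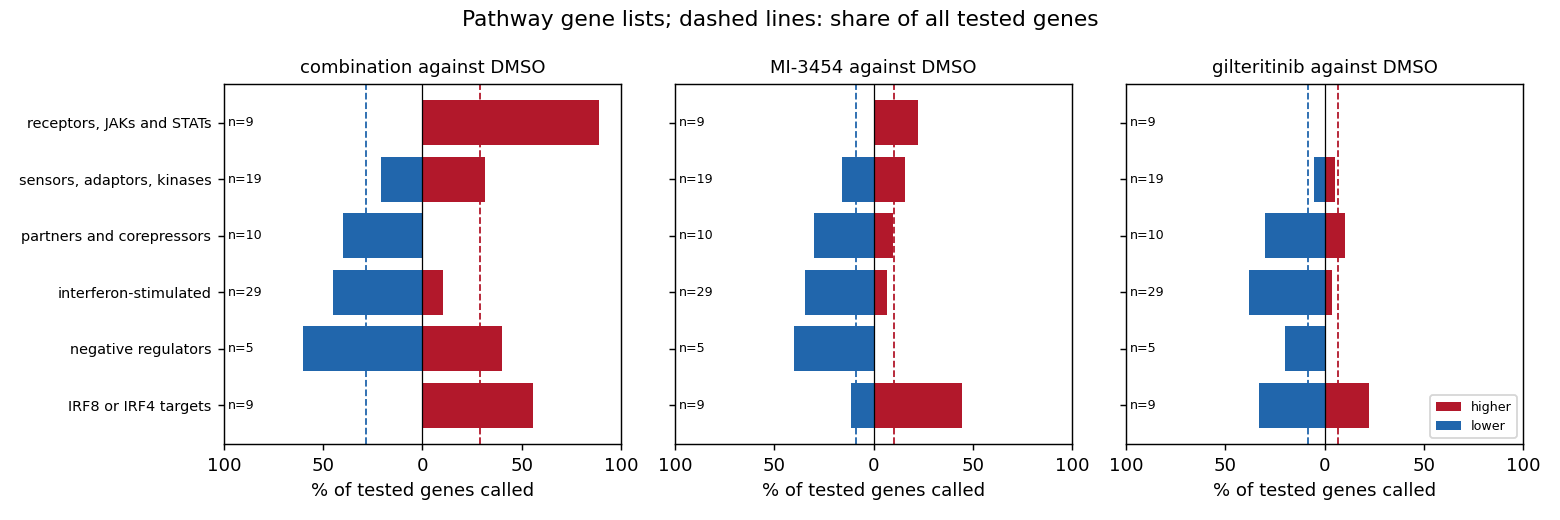
Percent of the tested genes (n) of 6 pathway lists called higher (red, right) or lower (blue, left) in the combination, MI-3454 and gilteritinib, each against DMSO; dashed lines give the percent of all 13972 tested genes. Receptor, JAK and STAT genes reach 8 of 9 higher with the combination, and more interferon-stimulated genes are called lower than higher in all 3 comparisons (13, 10 and 11 of 29 lower).

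Of the interferon genes themselves none was tested. Of 21 listed genes, 19 had a count of 0 in every library. The counts hold uniquely placed reads, so reads that near-identical interferon genes share may be missing from them. For uniquely placed reads a count of 0 allows at most 0.113 CPM over the combination libraries and 0.0959 CPM over those with DMSO (3 counts per group). IFNB1 had 0 counts with the combination, 0 with MI-3454, 2 with gilteritinib and 6 with DMSO, and IFNL1 had 1 count, with gilteritinib.

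Interferon-stimulated genes are the targets of ISGF3 and of the IRFs. Of 29 tested (of 36 listed), 13 fell and 3 rose with the combination, 10 fell and 2 rose with MI-3454, and 11 fell and 1 rose with gilteritinib, with medians of -0.40, -0.17 and -0.48. Over all genes 28.4% fell and 29.2% rose with the combination, 8.95% and 10.1% with MI-3454 and 8.18% and 6.92% with gilteritinib. The count of higher genes was 1 with MI-3454 without DMSO replicate 1 or 3 or MI-3454 replicate 1 or 3. With gilteritinib it was 0 without DMSO replicate 3 or any of the 3 gilteritinib libraries and 2 without DMSO replicate 2. The antiviral genes IFIT1 and IFIT2, which bind viral RNA or its translation machinery, fell in all 3. IFIT1 had 6 counts over the combination libraries, 10 with MI-3454, 59 with gilteritinib and 235 with DMSO. IFIT2 averaged 3.56 ± 0.478 CPM with the combination, 4.07 ± 0.373 with MI-3454, 8.48 ± 0.873 with gilteritinib and 31.0 ± 2.24 CPM with DMSO, and fell with log2 changes of -3.14 ± 0.17, -2.92 ± 0.16 and -1.87 ± 0.14. IFIT3 fell to 2.73 ± 0.790 CPM with the combination, against 17.2 ± 1.76 CPM with DMSO. HERC5, a ligase for the ubiquitin-like ISG15, fell by 2.34 ± 0.37 with MI-3454 and by 1.92 ± 0.32 with gilteritinib. OAS2, an activator of RNase L, had 1 count with the combination against 106 with DMSO, 96.5-fold lower relative to depth (exact counting interval 16.9 to 3845). The interaction term was called positive for 5 of 29 and negative for 1 (0 to 2 over the alternatives), beside 6.55% and 8.74% of all genes. Its median was 0.34 beside -0.020. The antiviral gene RSAD2 had a term of 2.56 ± 0.41 (adjusted p = 0.00069), OAS1 1.71 ± 0.34 (adjusted p = 0.0036) and IFIT2 1.65 ± 0.23 (adjusted p = 0.00019). For RSAD2 and IFIT2 a positive term means a combination change less negative than the sum of the single-agent changes. RSAD2 changed by -0.53 ± 0.26 with the combination (adjusted p = 0.097), -1.64 ± 0.30 with MI-3454 and -1.45 ± 0.31 with gilteritinib. OAS1 rose by 0.80 ± 0.22 with the combination. Its changes with MI-3454 (-0.095 ± 0.27) and gilteritinib (-0.82 ± 0.27) were not called.

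Of 5 negative regulators of interferon signalling, 2 rose and 3 fell with the combination, 2 fell with MI-3454 and 1 fell with gilteritinib (medians -0.38, 0.20 and -0.21). Over all genes 29.2% rose and 28.4% fell with the combination, while 8.95% fell with MI-3454 and 8.18% with gilteritinib. SOCS1, an inhibitor of JAK kinases, fell with log2 changes of -1.23 ± 0.15, -1.18 ± 0.25 and -1.74 ± 0.17 with the combination, MI-3454 and gilteritinib. USP18, which restrains the type I interferon receptor, fell by 2.44 ± 0.38 with the combination. Its fall with MI-3454 (-1.06 ± 0.30, adjusted p = 0.030) was not called without DMSO replicate 1 or 2 or any of the 3 MI-3454 libraries (adjusted p = 0.069 to 0.12). PTPN2, a phosphatase of JAKs and STATs, and PIAS1, an inhibitor of STAT activity, rose by 0.49 ± 0.12 and 0.47 ± 0.11 with the combination.

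The last list held genes known as IRF8 or IRF4 targets in myeloid cells. Of 9 tested (of 12 listed), 5 rose and none fell with the combination, 4 rose and 1 fell with MI-3454, and 2 rose and 3 fell with gilteritinib, with medians of 0.37, 0.99 and -0.30. Over all genes 29.2% rose and 28.4% fell with the combination, 10.1% and 8.95% with MI-3454 and 6.92% and 8.18% with gilteritinib. The gilteritinib count of lower genes was 5 with the replicate block, 4 without DMSO replicate 2 and 2 without gilteritinib replicate 1 or 3. CYBB, the catalytic subunit of NADPH oxidase in phagocytes, averaged 403.0 ± 7.85 CPM with the combination, 246.3 ± 38.9 with MI-3454, 29.3 ± 6.05 with gilteritinib and 11.7 ± 0.334 CPM with DMSO. CST3, a protease inhibitor gene, rose by 2.43 ± 0.16, 1.72 ± 0.22 and 1.13 ± 0.18 in the 3 comparisons, and KLF4, a monocyte differentiation factor, rose by 1.82 ± 0.18 with the combination. CIITA, the master regulator of MHC class II genes, fell by 1.57 ± 0.21 with MI-3454 and by 2.26 ± 0.25 with gilteritinib. With the combination its change was -0.47 ± 0.21 (adjusted p = 0.060), and its interaction term was 3.36 ± 0.36 (adjusted p = 1.51e-05). Counts of all lists over the alternatives ran within 2 of the values given here for the combination. In bulk RNA fewer expressing cells and less RNA per cell cannot be told apart, for these genes and for the IRFs alike.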

How the data were processed

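The deposited files give whole-number counts of reads per Ensembl gene with no normalization, 1 file per library, 12 in all. Per the submitters' processing notes, the build was GRCh38 and the tools were HTSeq 0.11.2, STAR 2.7.1a, DESeq2 and cutadapt 2.1, with no step assigned to each; the annotation release, counting mode and strand setting were not given in the sources used here. Libraries were made from ribosomal RNA-depleted total RNA, per the labels' protocols. The 5 summary lines were kept out of library sizes and tests. The share of uniquely placed reads assigned to no gene is in the report. Groups and replicate numbers came from titles; a treatment label carries another trailing number in 2 of 3 libraries of each group with MI-3454, and the titles were followed.

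Of 60668 gene IDs, 60295 had a symbol and 58548 were in GENCODE 29, which gave positions and exon lengths; 1266 entries share a symbol with another. Genes passing edgeR's filterByExpr over the 4 groups (13972) were tested with edgeR 4.0.16 (R 4.3.3) quasi-likelihood fits of the 6 libraries compared, TMM factors and Benjamini-Hochberg adjustment at 0.05; the interaction used all 12. SE is the log2 change divided by the square root of F. CPM is the count over total gene counts times the TMM factor. Alternatives were DESeq2 size factors, total counts, DESeq2 1.42.0, no filter, a joint fit, the replicate number as a block, each library left out, and the library of each group highest in RN7SL1 left out; the tests ran on simulated data first. Named list genes were the called ones with the largest change against DMSO, up to 4 per list and comparison. Values of some genes of the lists are not reported here. The members, lists and tests were chosen with earlier results of these data known, and alternatives for the lists were added after seeing the data.

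Deviations of same-numbered gilteritinib and DMSO libraries correlated at 0.18, 0.46 and 0.14, so these numbers were taken to pair the samples. In every other comparison at least 1 such correlation was below 0.1. The pairing is uncertain, since gilteritinib replicate 1 correlated at 0.26 with DMSO replicate 3. The replicate 2 libraries, at 0.46, are the highest in RN7SL1 of both groups. Whether pairing or this shared trait lies behind the correlation was not tested. No 2 libraries held identical values.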

Additional observations from a re-analysis of the deposited data

Results flagged for a closer look

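The effect of gilteritinib on IRF1 differed between cells with and without MI-3454, by an interaction term of 0.87 ± 0.18 on the log2 scale (edgeR quasi-likelihood test over 12 libraries, adjusted p = 0.0052). IRF1 averaged 62.9 ± 2.88 CPM with the combination and 39.96 ± 6.82 CPM with MI-3454, and 41.0 ± 5.06 CPM with gilteritinib and 47.6 ± 5.69 CPM with DMSO. The term lay between 0.77 and 1.01 and stayed called in all 18 alternatives.

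IRF9 had an interaction term of 1.62 ± 0.41 (adjusted p = 0.014), with 80 counts over the combination libraries, 49 with MI-3454, 47 with gilteritinib and 92 with DMSO. It stayed called in all 18 alternatives, the largest adjusted p being 0.041. The overlap with the spanning gene applies to all 4 groups, and its part was not tested.

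IRF5 had an interaction term of 0.49 ± 0.12 (adjusted p = 0.015), with 84.5 ± 2.51 CPM with the combination, 56.1 ± 1.81 with MI-3454, 34.1 ± 2.50 with gilteritinib and 31.8 ± 1.31 CPM with DMSO. It stayed called in 17 of 18 alternatives.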

How the results depend on the processing

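Calls of IRF1 and IRF5 against DMSO and between treated groups kept their direction and their side of the threshold in all alternatives, as did the IRF8 calls for MI-3454 against DMSO, the combination against gilteritinib and MI-3454 against gilteritinib. The number of members called moved by over 1.5 times as follows; the fit with no filter also tests IRF4, so its counts are out of 8. For the combination against DMSO (5) it ran from 3 to 5 with 1 library left out, at 3 without combination replicate 2. For MI-3454 against DMSO (2) it was 4 with no filter on low counts, and for gilteritinib against DMSO (1) it was 3 with no filter, 2 in a joint fit of all 12 libraries, 3 with the replicate block, and 0 to 1 with 1 library left out. For the combination against MI-3454 (4) it was 2 with no filter, 2 with the replicate block, which ended the IRF2 (adjusted p = 0.073) and IRF8 (adjusted p = 0.12) calls, and 2 to 4 with 1 library left out. Smaller changes were 3 members called for MI-3454 against DMSO (with IRF7) and for MI-3454 against gilteritinib (with IRF3) in the settings the report names, and for the combination against gilteritinib (4) 5 with total counts alone (IRF2, 0.33, adjusted p = 0.014) and 3 without gilteritinib or combination replicate 3 (IRF9). Genes called with the replicate block were 1678 for MI-3454 against DMSO (2658 without it) and 4928 for gilteritinib against DMSO (2110 without it); in each other comparison at least 1 same-numbered pair correlated below 0.1, and the block changed no member call other than those named here and in the report. Leaving out the library of each group highest in RN7SL1, a cytoplasmic RNA at 1.17 to 4.56% of gene counts, gave 4250 genes for gilteritinib against DMSO, 5133 (2430 with all libraries) for MI-3454 against gilteritinib and 3478 (2136) for the interaction. With 1 library left out the counts ran from 1243 to 3985 for gilteritinib against DMSO, 2456 to 5074 for the combination against MI-3454 (4075), 1588 to 4690 for MI-3454 against gilteritinib and 1305 to 2698 for the interaction.

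Changes whose sign turned were called in neither setting. IRF9 in the combination against DMSO was 0.071 with total counts alone, 0.39 without the RN7SL1-high libraries, and -0.23 to 0.23 with 1 library left out. Without the RN7SL1-high libraries IRF3 was 0.0085 in the combination against DMSO, IRF8 0.0082 in gilteritinib against DMSO, and IRF7 -0.17 in MI-3454 against gilteritinib. In that last comparison IRF7 was -0.0030 with DESeq2 size factors, -0.0034 with DESeq2, -0.024 with no filter and -0.015 with the replicate block. With 1 library left out IRF2 ran from -0.041 to 0.058 in MI-3454 against DMSO, IRF3 from -0.015 to 0.13 and IRF8 from -0.11 to 0.086 in gilteritinib against DMSO, IRF7 from -0.028 to 0.25 in the combination against MI-3454 and from -0.19 to 0.096 in MI-3454 against gilteritinib, IRF1 from -0.18 to 0.069 in MI-3454 against gilteritinib, and the IRF3 interaction from -0.033 to 0.13. The cause was not tested. Scaled to the longest transcript, levels with DMSO were 9.23 for IRF1, 11.2 for IRF2, 36.7 for IRF3, 10.6 for IRF5, 18.6 for IRF7, 95.1 for IRF8 and 1.61 CPM per kilobase for IRF9, since that transcript is shorter than the merged exons. Precision is limited for IRF4 and IRF9, whose summed counts per group were at most 28 and 92; the part of depth and of the shared IRF9 exons in these counts was not tested.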
